A study of Mus musculus with 4 samples.

Results

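Mitochondrial ribosomal protein genes encode the protein subunits of the ribosome that works inside mitochondria. The genes were taken by symbol, as every row named Mrpl or Mrps followed by a number and at most 1 letter, which left pseudogene names ending in -ps out. This gave 77 of the 12067 genes in the count table, of which 50 encode proteins of the large subunit and 26 proteins of the small subunit. The remaining gene, *Mrps36*, carries a small-subunit name but encodes a component of the alpha-ketoglutarate dehydrogenase complex. The GENCODE M21 annotation holds 78 coding genes with such names, and *Mrpl33* was the only 1 of them without a row.

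The libraries were Quant-seq 3′ mRNA libraries of donor-derived KL cells (Lin-, cKIT+, Sca-1- bone marrow cells, the myeloid progenitor gate), sorted from Ptprca recipients 20 weeks after transplant. Donors of the BcorΔE9-10 group, with 2 libraries, carried the genotype scl-Cre-ERT +; Bcorfl/y. Donors of the BcorWT group, also with 2 libraries, were Bcorfl/y without the Cre transgene. Both groups of donors had been given tamoxifen, 5 mg in total at 3 to 6 months of age, so the Cre transgene and the deletion of *Bcor* exons 9 and 10 were what set the groups apart. The HSC-SCL-Cre-ERT transgene acts in haematopoietic stem cells, the deletion leaves a low level of truncated *Bcor* protein, and both the presence of Cre and the loss of the exons differ between the groups and cannot be told apart. Recipients were female, irradiated below a lethal dose, and the sources used here do not say whether each library came from a separate recipient. The p-values therefore measure the spread between these libraries, which may in part be technical. The question addressed here was whether the transcripts of mitochondrial ribosomal proteins differed between BcorΔE9-10 and BcorWT KL cells.

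The mitochondrial ribosome translates the few messages encoded by mitochondrial DNA, which specify membrane subunits of the respiratory chain and of ATP synthase. Its rRNAs come from mitochondrial DNA, whereas all of its proteins are encoded in the nucleus, made in the cytoplasm and imported. Some subunits have counterparts in bacterial ribosomes and others are found only in mitochondria. *Bcor* is a subunit of a Polycomb repressive complex that places ubiquitin on histone H2A, and haematopoietic stem cells are known to rely little on respiration and to raise it as they differentiate.

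The nuclear factors best known to act on mitochondrial genes are NRF1, the ETS factor GABP and YY1, and their motifs mark many promoters of this family. Promoter windows of 300 bases, from 250 before to 50 after an annotated start, were read from RefSeq on GRCm38.p6, where 68 of the 77 genes matched with 74 windows. Each motif was sought on both strands and matches were allowed to overlap. The NRF1 motif, GCGCA and GCGC with any base between them, was found in 17.6% of the windows, against 10.7% of windows for all genes of the table and 4.60% of all RefSeq windows. For the ETS motif CCGGAAG the shares were 33.8%, 19.0% and 8.86%. For the YY1 motif AAGATGGC they were 16.2%, 4.85% and 2.75%. The CCAAT letters were in 39.2% of the windows and 37.5% of those of the table, and TATAAA was in 6.76% and 6.85%. The windows of 42 genes held at least 1 of the NRF1, ETS and YY1 motifs and those of 26 held none. These matches describe letters only, and no binding was measured.

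The promoters of 6 genes are printed to show these arrangements, 5′ to 3′ on the strand of the gene, with motif matches in capitals. *Mrpl45*, which anchors the ribosome to the inner membrane, holds 3 NRF1 matches, the first of them 120 bases before the start. *Mrpl12*, the stalk protein, holds a single NRF1 match. *Mrps12*, a protein of the decoding centre, pairs an inverted YY1 match with an ETS match that begins 2 bases into the transcript. The Mrps18 paralogues are set side by side because their log2 fold changes had both signs, and all 3 hold an ETS match, with a YY1 match only in *Mrps18a*.

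Mrpl45 chr11:97315466-97315765 (+ strand): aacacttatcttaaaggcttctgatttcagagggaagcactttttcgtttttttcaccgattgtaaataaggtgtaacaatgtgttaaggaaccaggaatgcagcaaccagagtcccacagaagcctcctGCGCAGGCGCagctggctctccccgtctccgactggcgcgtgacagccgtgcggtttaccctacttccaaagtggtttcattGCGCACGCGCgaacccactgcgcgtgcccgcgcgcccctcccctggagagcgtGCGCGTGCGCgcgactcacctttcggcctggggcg
Mrpl12 chr11:120484387-120484686 (+ strand): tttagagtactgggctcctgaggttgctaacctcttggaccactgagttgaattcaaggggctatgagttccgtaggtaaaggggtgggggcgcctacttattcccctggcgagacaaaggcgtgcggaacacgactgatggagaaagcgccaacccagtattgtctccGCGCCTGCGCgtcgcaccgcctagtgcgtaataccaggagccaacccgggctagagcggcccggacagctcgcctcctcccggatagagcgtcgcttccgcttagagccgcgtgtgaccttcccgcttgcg
Mrps12 chr7:28741772-28742071 (- strand): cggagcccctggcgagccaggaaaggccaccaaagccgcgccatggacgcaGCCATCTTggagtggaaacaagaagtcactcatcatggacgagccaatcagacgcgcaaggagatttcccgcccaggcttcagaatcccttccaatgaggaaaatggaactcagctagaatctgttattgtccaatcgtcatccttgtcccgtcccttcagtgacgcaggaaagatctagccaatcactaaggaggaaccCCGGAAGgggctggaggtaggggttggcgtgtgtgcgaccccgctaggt
Mrps18a chr17:46110754-46111053 (+ strand): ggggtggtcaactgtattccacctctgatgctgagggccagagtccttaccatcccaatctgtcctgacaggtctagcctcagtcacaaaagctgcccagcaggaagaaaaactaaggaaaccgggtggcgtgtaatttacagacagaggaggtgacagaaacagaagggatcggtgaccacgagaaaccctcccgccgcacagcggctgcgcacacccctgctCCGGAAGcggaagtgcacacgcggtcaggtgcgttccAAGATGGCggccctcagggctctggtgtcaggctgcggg
Mrps18b chr17:35916391-35916690 (- strand): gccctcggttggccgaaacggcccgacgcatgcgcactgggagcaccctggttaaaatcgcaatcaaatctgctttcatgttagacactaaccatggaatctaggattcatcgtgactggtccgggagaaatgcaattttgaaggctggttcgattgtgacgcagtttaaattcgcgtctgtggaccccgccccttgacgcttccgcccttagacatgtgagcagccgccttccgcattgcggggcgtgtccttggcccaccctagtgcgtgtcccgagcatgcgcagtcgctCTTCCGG
Mrps18c chr5:100798509-100798808 (+ strand): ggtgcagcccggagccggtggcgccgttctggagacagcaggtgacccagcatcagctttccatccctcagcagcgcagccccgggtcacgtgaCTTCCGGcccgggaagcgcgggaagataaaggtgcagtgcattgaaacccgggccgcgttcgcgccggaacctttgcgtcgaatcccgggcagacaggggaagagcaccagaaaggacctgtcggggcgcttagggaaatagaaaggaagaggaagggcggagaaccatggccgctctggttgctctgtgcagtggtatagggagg

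The 77 genes were expressed at moderate levels in every library. No gene was at 0 in any library, the lowest count being 8, and the edgeR filter on low counts removed none. Levels were expressed as CPM, the count of a gene relative to the total of its library, scaled by TMM, the edgeR correction for library composition. They were not divided by length, because a 3′ library reads a single end of each transcript. The mean CPM over the 4 libraries ran from 2.88 for *Mrps27* to 107 for *Mrpl47*, with a median of 33.1. The 5 highest were *Mrpl47*, *Mrpl18*, *Mrpl12*, *Mrps25* and *Mrps21*, and the 3 lowest were *Mrps27*, *Mrps31* and *Mrps22*. None of the 76 pairs of neighbours in this order had levels that lay wholly apart across the 4 libraries.

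**Figure D1:**
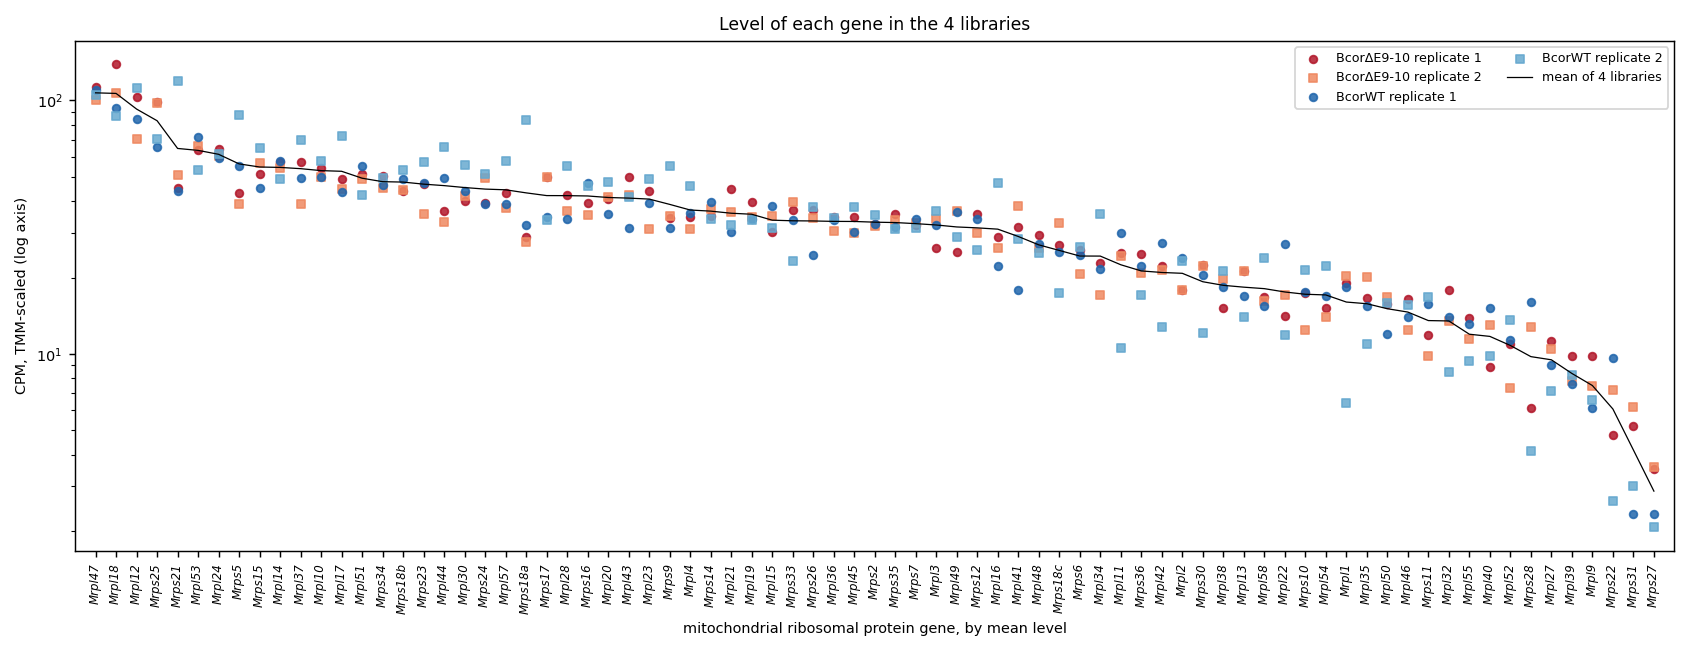
CPM of each of the 77 genes, scaled by TMM (vertical log axis), ordered by mean level, with a point for each of the 4 libraries and a line for the mean. The line falls from 107 for Mrpl47 to 2.88 for Mrps27, and the squares of BcorWT replicate 2 lie farthest from the line for many genes.

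*Mrpl47*, a large-subunit protein near the exit tunnel, was at 113 and 100 CPM in the BcorΔE9-10 libraries and at 110 and 105 CPM in the BcorWT libraries. Its 4 values overlapped and it was among the steadiest members. *Mrpl18*, a protein of the large subunit, was at 139 and 107 CPM against 93.2 and 86.4 CPM, higher in both BcorΔE9-10 libraries. *Mrpl12* was at 103 and 70.3 CPM against 84.4 and 111 CPM, with the groups overlapping. At the lower end, *Mrps22* was at 4.81 and 7.17 CPM in BcorΔE9-10 and at 9.64 and 2.63 CPM in BcorWT, where the pair of BcorWT libraries enclosed both others.

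Together the 77 transcripts made up 0.288% and 0.248% of all counts in BcorΔE9-10 replicates 1 and 2, and 0.227% and 0.305% in BcorWT replicates 1 and 2. The 95% Wilson intervals of the highest and lowest share were 0.300% to 0.309% and 0.223% to 0.232%, and cover counting error only. The lowest and highest share thus both belonged to BcorWT. With *Gm42418*, a row known to collect rRNA reads, left out of the totals, both belonged to BcorΔE9-10 instead (0.289% and 0.344%). The BcorWT shares then lay between them (0.315% and 0.309%). The summed CPM was 2692 and 2527 in BcorΔE9-10 against 2541 and 2861 in BcorWT. The mean of the BcorΔE9-10 libraries differed from that of the BcorWT libraries by -3.40% (SD 7.53 over the 4 pairs of a library from each group). These pairs share libraries, so their SD describes them and is not an error estimate. The ratio of summed small-subunit to large-subunit CPM was 0.499 and 0.544 in BcorΔE9-10 and 0.508 and 0.542 in BcorWT, and each group spanned nearly the same range. In bulk RNA a smaller share of a cell type and less RNA per cell cannot be told apart.

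No mitochondrial ribosomal protein gene passed the test for a difference between genotypes. With edgeR's quasi-likelihood test, 0 of 77 had a Benjamini-Hochberg adjusted p under 0.05, where 0.0166% of all genes (2 of 12067) did. At an unadjusted p under 0.05 the count was also 0, against 4.42% of all genes, made up of 1.34% higher and 3.07% lower. By limma-voom the counts were 0 adjusted and 0 unadjusted, against 0.0331% and 4.27% of all genes. By DESeq2 they were 0 adjusted and 1 unadjusted (*Mrps18a*), against 0.356% and 4.19% of all genes. A p that misses the threshold does not show that levels were equal.

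The sizes of the differences were small and centred near 0. The log2 fold change (BcorΔE9-10 against BcorWT) had a median of -0.03 over the 77 genes, the same as the -0.03 over all genes tested. In the 4 single pairs of libraries the median was 0.10, 0.02, -0.05 and -0.06, with an SD of 0.07. The quartiles were -0.27 and 0.22, and the extremes were -1.04 and 1.07. Values were above 0 for 33 genes and below 0 for 44, which is 42.9% above, against 47.7% of all genes. With any 1 library left out, 40 were above 0. An absolute log2 fold change under 0.5 was found for 64 genes (83.1%), against 68.0% of all genes. The 95% interval lay wholly between -1 and 1 for 28 genes (36.4%), against 19.7% of all genes, so for the other 49 a change of 2-fold was not excluded by its interval. Both BcorΔE9-10 libraries lay above both BcorWT libraries for 18 genes (23.4%, against 16.8% of all genes) and below both for 13 (16.9%, against 17.1%).

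**Figure D2:**
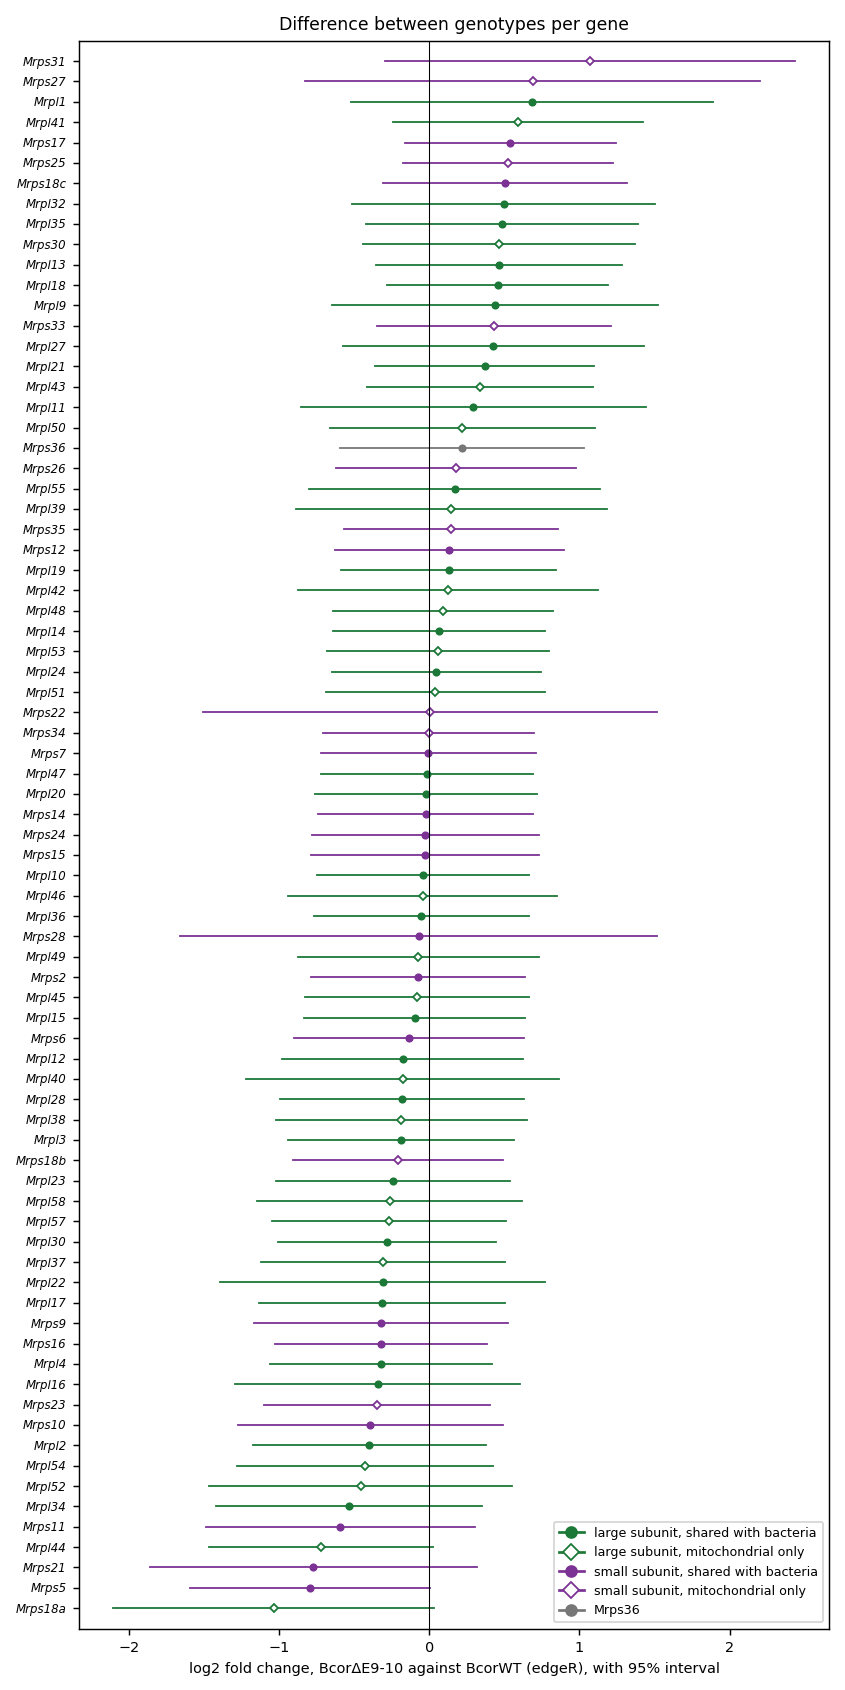
Log2 fold change of each gene, BcorΔE9-10 against BcorWT (horizontal axis, edgeR), with its 95% interval as a line, coloured by subunit and with open diamonds for proteins found only in mitochondria. The points run from -1.04 for Mrps18a to 1.07 for Mrps31, and every interval crosses 0.

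Among the genes with the lowest values, *Mrps18a*, *Mrps5* and *Mrps21* stood well higher in BcorWT replicate 2 than in BcorWT replicate 1. *Mrps18a* (chromosome 17, 46110986 to 46128910, + strand on GRCm38), which despite its name encodes the large-subunit protein mL66, was at 29.0 and 27.7 CPM in BcorΔE9-10 and at 32.1 and 83.7 CPM in BcorWT. Only the second BcorWT library stood well above the rest. Its log2 fold change was -1.04 (SE 0.46, edgeR adjusted p = 0.945), and -0.18 without that library. *Mrps5* (chromosome 2, 127587222 to 127606829, + strand), a protein of the mRNA entry channel, was at 43.2 and 39.0 CPM against 55.2 and 87.1 CPM. The BcorΔE9-10 libraries were both lower, and the log2 fold change was -0.79 (SE 0.35, edgeR adjusted p = 0.945). Without BcorWT replicate 2 it was -0.43. *Mrps21*, a small-subunit protein, was at 44.9 and 50.7 CPM against 43.8 and 119 CPM. The groups overlapped, and the value of -0.77 (SE 0.47) became 0.13 without BcorWT replicate 2.

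*Mrpl44* (chromosome 1, 79776018 to 79781445, + strand), a member of the ribonuclease III family that sits near the exit site, was at 36.6 and 33.1 CPM in BcorΔE9-10 and at 49.4 and 65.3 CPM in BcorWT. Both BcorΔE9-10 libraries were lower than both BcorWT libraries. Its log2 fold change was -0.72 (SE 0.32, edgeR adjusted p = 0.945) and ran from -0.91 to -0.50 with each library left out. *Mrps11*, a protein of the small subunit, was at 11.8 and 9.78 CPM against 15.8 and 16.7 CPM, again without overlap, with a log2 fold change of -0.59 (SE 0.39).

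The genes with the highest values included the 2 members of lowest level, *Mrps27* and *Mrps31*. *Mrps31* (chromosome 8, 22411361 to 22429665, + strand), found only in mitochondria, had 28 and 38 counts in BcorΔE9-10 and 8 and 16 in BcorWT, or 5.17 and 6.19 CPM against 2.34 and 3.01 CPM. Its log2 fold change was 1.07 (SE 0.59, 95% interval -0.30 to 2.44). *Mrps27*, which has pentatricopeptide repeats, had 19 and 22 counts against 8 and 11, with a log2 fold change of 0.69 (SE 0.65). Both genes were higher in both BcorΔE9-10 libraries, on few counts. *Mrpl1*, a protein of the L1 stalk, was at 19.0 and 20.2 CPM against 18.4 and 6.40 CPM. Only BcorWT replicate 2 was low, and its log2 fold change of 0.68 (SE 0.52) was 0.09 without that library and 1.61 without BcorWT replicate 1. *Mrpl41*, of the large subunit, was at 31.8 and 38.1 CPM against 17.8 and 28.4 CPM, with a log2 fold change of 0.59 (SE 0.36) that was 0.30 without BcorWT replicate 1 and 0.97 without BcorWT replicate 2.

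In a pair of better-counted small-subunit genes the replicates of each genotype lay close together. *Mrps17* (chromosome 5, 129715497 to 129722556, + strand) was at 49.7 and 50.0 CPM in BcorΔE9-10 and at 34.8 and 33.9 CPM in BcorWT. Its log2 fold change was 0.54 (SE 0.30, 95% interval -0.16 to 1.24) and stayed between 0.52 and 0.55 with each library left out. *Mrps25* (chromosome 6, 92169525 to 92184033, - strand) was at 98.5 and 97.5 CPM against 65.7 and 70.6 CPM, with a log2 fold change of 0.52 (SE 0.30, 95% interval -0.18 to 1.22) and a range from 0.47 to 0.58. The last 500 bases of *Mrps25* overlap exons of *Nr2c2* on the other strand. Neither passed edgeR's test, with an adjusted p of 0.945 for both, in which the spread of a gene is estimated with that of the others.

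By function, values lay on both sides of 0. Of the stalk, which recruits translation factors, *Mrpl10* had a log2 fold change of -0.04, *Mrpl12* of -0.18 and *Mrpl11* of 0.29, all with overlapping groups. *Mrpl11* was at 25.0 and 24.3 CPM against 30.1 and 10.5 CPM, again with BcorWT replicate 2 apart. The 6 genes of the exit tunnel and its membrane side had a median of -0.16, with 5 of 6 below 0, from -0.72 for *Mrpl44* to 0.05 for *Mrpl24*, and *Mrpl45* was at -0.08. The 4 genes of the central protuberance had a median of -0.11. *Mrps12* had a log2 fold change of 0.13, and *Mrpl58*, a peptidyl-tRNA hydrolase that rescues stalled ribosomes, of -0.26. *Mrps30*, which encodes the large-subunit protein mL65, was at 22.4 and 22.2 CPM against 20.4 and 12.0 CPM. Its log2 fold change of 0.46 (SE 0.39) was 0.12 without BcorWT replicate 2 and 0.88 without BcorWT replicate 1. *Mrps36* was at 0.22 with overlapping groups.

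By subunit, the median log2 fold change was -0.04 for the 50 large-subunit genes, with 22 above 0, and -0.02 for the 26 small-subunit genes, with 10 above 0. By origin, it was -0.04 for the 45 genes shared with bacteria, with 16 above 0, and 0.00 for the 31 found only in mitochondria, with 16 above 0. Within the small subunit, 7 of 10 mitochondrial-only genes were above 0 (median 0.16) and 3 of 16 genes shared with bacteria were (median -0.07). The large subunit did not show this contrast. There, 9 of 21 mitochondrial-only genes were above 0 (median -0.07) and 13 of 29 genes shared with bacteria were (median -0.02). None of these genes passed the test, and the difference between the classes was not tested. Of all genes, 47.7% were above 0. Without BcorWT replicate 2, the small-subunit genes *Mrps9* (0.15), *Mrps15* (0.26), *Mrps21* (0.13) and *Mrps24* (0.19), shared with bacteria, turned to above 0. *Mrps12* (-0.06), of the same class, turned to below 0. Of the mitochondrial-only genes of that subunit, *Mrps34* (0.05) turned to above 0 and *Mrps22* (-0.68) to below 0.

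The Mrps18 paralogues, related to a single bacterial protein, occupy different places in the ribosome, and the systematic names used for the classes by origin count *Mrps18a* and *Mrps18b* as found only in mitochondria. *Mrps18b* and *Mrps18c* are small-subunit proteins, whereas *Mrps18a* is in the large subunit. *Mrps18b* was at 44.0 and 44.3 CPM against 48.8 and 53.3 CPM, lower in both BcorΔE9-10 libraries, with a log2 fold change of -0.21 (SE 0.30). *Mrps18c* was at 27.0 and 32.9 CPM against 25.1 and 17.3 CPM, higher in both, with a log2 fold change of 0.50 (SE 0.35) that was 0.25 without BcorWT replicate 2 and 0.79 without BcorWT replicate 1. The 3 paralogues, whose promoters with an ETS match are printed above, therefore had values on both sides of 0, none of them past the threshold.

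Grouped by the promoter motifs, the median log2 fold change was -0.18 for the 13 genes with an NRF1 match, 0.00 for the 25 with an ETS match, -0.02 for the 12 with a YY1 match and -0.02 for the 26 with none. Values in each of these groups ran over both signs. The transcripts of the factors themselves did not pass the test: *Nrf1* was at 38.1 and 43.8 CPM against 39.7 and 91.6 CPM, *Gabpa* at 18.1 and 23.5 CPM against 17.5 and 12.6 CPM, and *Yy1* at 107 and 99.1 CPM against 85.3 and 50.4 CPM. BcorWT replicate 2 was the highest library for *Nrf1* and the lowest for *Gabpa* and *Yy1*. The log2 fold change of *Nrf1* was -1.16 without BcorWT replicate 1 and 0.04 without BcorWT replicate 2. *Ppargc1a*, a coactivator of mitochondrial genes, had 1 and 3 counts in BcorΔE9-10 and 15 and 14 in BcorWT. It was the only 1 of 10 such regulators with an unadjusted edgeR p under 0.05 (edgeR adjusted p = 0.945). Both BcorΔE9-10 libraries were at or under 3 counts, so its fitted log2 fold change depends on the prior count and is not given as a size.

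The spread between the BcorWT libraries exceeded that between the BcorΔE9-10 libraries. The median absolute difference in log2 CPM between replicates was 0.36 in BcorWT and 0.17 in BcorΔE9-10 over the 77 genes, and 0.57 and 0.31 over all genes. The BcorWT replicates were the farther apart for 53 of 77 genes (68.8%), against 67.6% of all genes. BcorWT replicate 2 was the highest library for 32 members (41.6%, against 34.5% of all genes) and the lowest for 27 (35.1%, against 36.1%). Without BcorWT replicate 1, 13 members had an unadjusted edgeR p under 0.05 where 25.0% of all genes did, and 2 passed after adjustment, *Mrps18a* (-1.57) and *Mrps21* (-1.32), where 4.94% of all genes passed. Without BcorWT replicate 2, the count was 2 (*Mrpl22* and *Mrpl41*), where 5.71% of all genes had such a p.

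**Figure D3:**
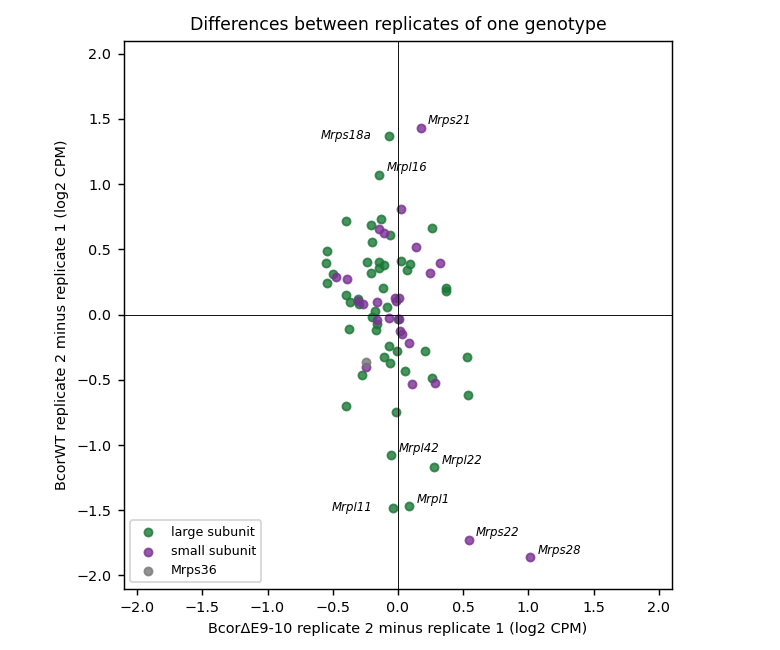
Difference in log2 CPM between the BcorΔE9-10 replicates (horizontal axis) and between the BcorWT replicates (vertical axis), with a point for each gene coloured by subunit and names for genes over 1 in absolute BcorWT difference. The cloud is taller than it is wide, with a median absolute difference of 0.36 between the BcorWT libraries and 0.17 between the BcorΔE9-10 libraries.

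Totals were 5058140 and 6253100.5 counts in BcorΔE9-10 and 3825289.5 and 4992205 in BcorWT, so 3 counts corresponded to between 0.489 and 0.876 CPM. *Gm42418*, a row known to collect rRNA reads, took 16.3% and 14.3% of the counts in BcorΔE9-10 and 27.9% and 1.43% in BcorWT. Left out of the totals, the 77 genes took 0.344%, 0.289%, 0.315% and 0.309% of counts in the same order of libraries. Myeloid progenitor markers (7 of 7 in the table, with *Kit*, *Mpo* and *Elane*) summed to between 8131 and 10964 CPM and none had an unadjusted p under 0.05. Mature neutrophil markers (8 of 8) summed to 63070 and 154386 CPM against 93964 and 141629 CPM, none with such a p, although the gate leaves out lineage-positive cells. Erythroid markers (7 of 9) summed to 132 and 116 CPM against 33.6 and 52.9 CPM, and 4 had an unadjusted p under 0.05. Eosinophil, basophil and mast cell markers (8 of 8) summed to 281 and 262 CPM against 602 and 764 CPM, and 6 had such a p. Monocyte and dendritic markers (6 of 7) summed to 70.0 and 61.8 CPM against 82.4 and 130.2 CPM, with none at such a p. Of the megakaryocyte markers (4 of 6), which summed to 108 and 141 CPM against 109.5 and 266 CPM, *Pf4* alone had one, at 14.8 and 12.4 CPM against 23.4 and 30.1 CPM. B cell markers (3 of 7, without a row for *Cd79a*) summed to between 13.4 and 32.3 CPM. Of the 7 T and NK cell markers only *Nkg7* had a row, at between 128 and 251 CPM, and stroma and endothelium markers (2 of 6) summed to between 35.4 and 100.5 CPM, with no unadjusted p under 0.05 in these 3 lists. The part of these differences in the values of the ribosomal protein genes was not tested.

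Another 5 subunits of the mitochondrial ribosome carry names of other kinds. *Dap3*, a GTP-binding small-subunit protein, was at 42.7 and 37.3 CPM in BcorΔE9-10 and at 45.8 and 45.9 CPM in BcorWT, with a log2 fold change of -0.20 (SE 0.31). *Ptcd3*, at the mRNA entry, was at 29.6 and 34.4 CPM against 10.5 and 26.7 CPM, higher in both BcorΔE9-10 libraries, with a log2 fold change of 0.76 (SE 0.46) that was 0.26 without BcorWT replicate 1 and 1.60 without BcorWT replicate 2. *Chchd1* had a log2 fold change of 0.22, *Aurkaip1* of -0.11 and the large-subunit gene *Gadd45gip1* of -0.26. None had an unadjusted p under 0.05.

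Among the genes that build and serve the mitochondrial ribosome, no gene passed the adjusted threshold in any list by edgeR, limma-voom or DESeq2. The 27 genes of assembly and rRNA modification had a median log2 fold change of -0.09, with 1 higher and 1 lower at an unadjusted edgeR p under 0.05. *Fastkd2*, needed for large-subunit assembly, was at 11.6 and 8.97 CPM against 5.84 and 2.63 CPM (log2 fold change 1.31, edgeR adjusted p = 0.945, with 0.81 without BcorWT replicate 2 and 1.95 without BcorWT replicate 1). *Eral1*, a chaperone of the small-subunit rRNA, was at 2.40 and 2.77 CPM against 7.59 and 7.15 CPM (log2 fold change -1.50, edgeR adjusted p = 0.945), without overlap between the groups. The 15 translation factors had a median of -0.07 and the 20 genes of aminoacyl-tRNA synthesis a median of -0.33, with 14 of the 20 below 0, and 0 in either list had an unadjusted p under 0.05 by edgeR. Among the latter, *Lars2* was at 34.4 and 27.9 CPM against 111 and 12.0 CPM, and its order over the libraries was that of *Gm42418*. The 11 of 13 listed genes of mitochondrial DNA transcription and upkeep that had rows had a median of -0.28, also with 0 at that p.

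**Figure D4:**
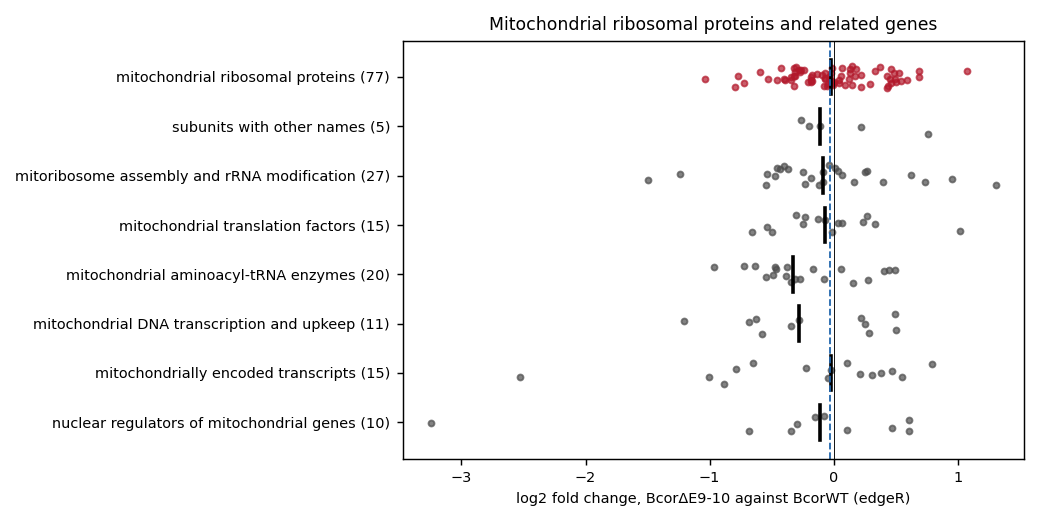
Log2 fold change of each gene, BcorΔE9-10 against BcorWT (horizontal axis, edgeR), for the 77 mitochondrial ribosomal protein genes and 7 lists of related genes, with numbers of genes in parentheses, a black bar at each median and a dashed line at the median of all genes. The ribosomal protein genes spread evenly about their median of -0.03, and the points below -2 are mt-Atp8 and Ppargc1a.

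The transcripts of mitochondrial DNA were measured as well, as the 13 mRNAs that this ribosome translates and its 2 rRNAs. Their median log2 fold change was -0.02, with 7 above 0 and 8 below. The 3 cytochrome oxidase messages and *mt-Atp6* were lowest by far in a single library. In BcorΔE9-10 replicate 1, *mt-Co2* was at 87.0 CPM, against 1020 CPM in replicate 2 and 1148 and 1076 CPM in BcorWT. In the same order of libraries *mt-Co3* was at 176, 1739, 2005 and 1523 CPM. For *mt-Atp6* the values were 88.9, 851, 878 and 601 CPM, and for *mt-Co1* they were 337, 1153, 1234 and 1342 CPM. Without BcorΔE9-10 replicate 1 the log2 fold changes of *mt-Co1*, *mt-Co2*, *mt-Co3* and *mt-Atp6* were -0.16, -0.12, -0.02 and 0.20. Without BcorΔE9-10 replicate 2, the log2 fold changes of *mt-Co2*, *mt-Co3* and *mt-Atp8* were -3.67, -3.32 and -5.25. *mt-Atp8* was at 2.03 and 24.9 CPM against 21.3 and 135 CPM, with overlapping groups and an unadjusted p under 0.05 (edgeR adjusted p = 0.945). With the replicate number as a block it passed the adjusted threshold (-2.81). It ran from -5.25 to -0.65 on the log2 scale with each library left out. The large rRNA, *mt-Rnr2*, was at 5590 and 6398 CPM against 5311 and 1629 CPM, and only BcorWT replicate 2 was low. Both BcorΔE9-10 libraries lay above both BcorWT libraries for 6 of the 15 transcripts (40.0%, against 16.8% of all genes), *mt-Rnr2* among them, and below both for 2 (13.3%, against 17.1%), *mt-Co1* and *mt-Co2*, while *mt-Cytb* was at 917 and 900 CPM against 762 and 1079 CPM, with overlapping groups.

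For scale, the 72 nuclear genes of oxidative phosphorylation subunits had a median log2 fold change of -0.05, with 32 above 0 and *Atp5l* (3.96) the only 1 with an unadjusted p under 0.05. The 84 rows with symbols of cytoplasmic ribosomal proteins had a median of 0.12, with 57 above 0 and 3 (*Rps6*, *Rps3a2* and *Rps3a3*) with such a p. These rows were taken by symbol alone, and whether each is a coding gene or a pseudogene copy was not checked. BcorΔE9-10 replicate 1 was the highest library for 53 of these 84 and the lowest for 0, whereas BcorΔE9-10 replicate 2 was the lowest for 37. None of either list passed the adjusted threshold by edgeR. *Atp5l* passed it by limma-voom and DESeq2, and its log2 fold change ran from 3.49 to 4.69 with each library left out. *Rps3a2* passed it by DESeq2. The log2 fold changes of *Rps6*, *Rps3a2* and *Rps3a3* were 2.34, 4.34 and 1.36 without BcorWT replicate 1. Without BcorWT replicate 2 they were 0.68, 2.19 and 0.92.

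Near-identical processed pseudogenes limit how far some members can be counted. Of the 77 genes, 19 had a pseudogene copy with at least 95% identity over at least 150 bases in GENCODE M21, 24 copies in all, and 8 of these copies, of 7 genes, had rows of their own. *Mrpl23-ps1* on chromosome 2 is 100% identical to its parent transcript over 540 bases. It had 19 and 224 counts in BcorΔE9-10 and 104 and 29 in BcorWT, and its CPM differed 10.4-fold between the highest and lowest library. Its parent *Mrpl23* had 237 and 190 counts against 135 and 260, a 1.58-fold range. The copy was high in BcorΔE9-10 replicate 2 and BcorWT replicate 1 and low in the other library of each genotype. The libraries where it was high are those whose deposited values were not all whole. A block by replicate number does not follow this split, and its cause was not tested.

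The pair of *Mrps36* copies showed the opposite libraries. *Mrps36-ps1* had 36 and 7 counts against 11 and 41, and *Mrps36-ps2* had 31 and 4 counts against 12 and 39, while *Mrps36* had 134 and 128 counts against 76 and 91. The copies of *Mrpl51* and *Mrpl48* were lowest in BcorWT replicate 2. *Gm14017*, 98.45% identical to *Mrpl51*, had 28 and 55 counts against 54 and 7, and *Mrpl48-ps* had 8 and 14 counts against 13 and 1. *Gm13328*, 98.4% identical to *Mrps5*, had 15 and 9 counts against 34 and 11. Reads from such copies and their parents can be assigned to either row, so some reads of a parent may stand in the row of its copy, and the reverse. With the counts of the 4 rows named -ps added to their parents, the log2 fold change of *Mrps36* moved from 0.22 to -0.03, and the median of the members stayed at -0.03.

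**Figure D5:**
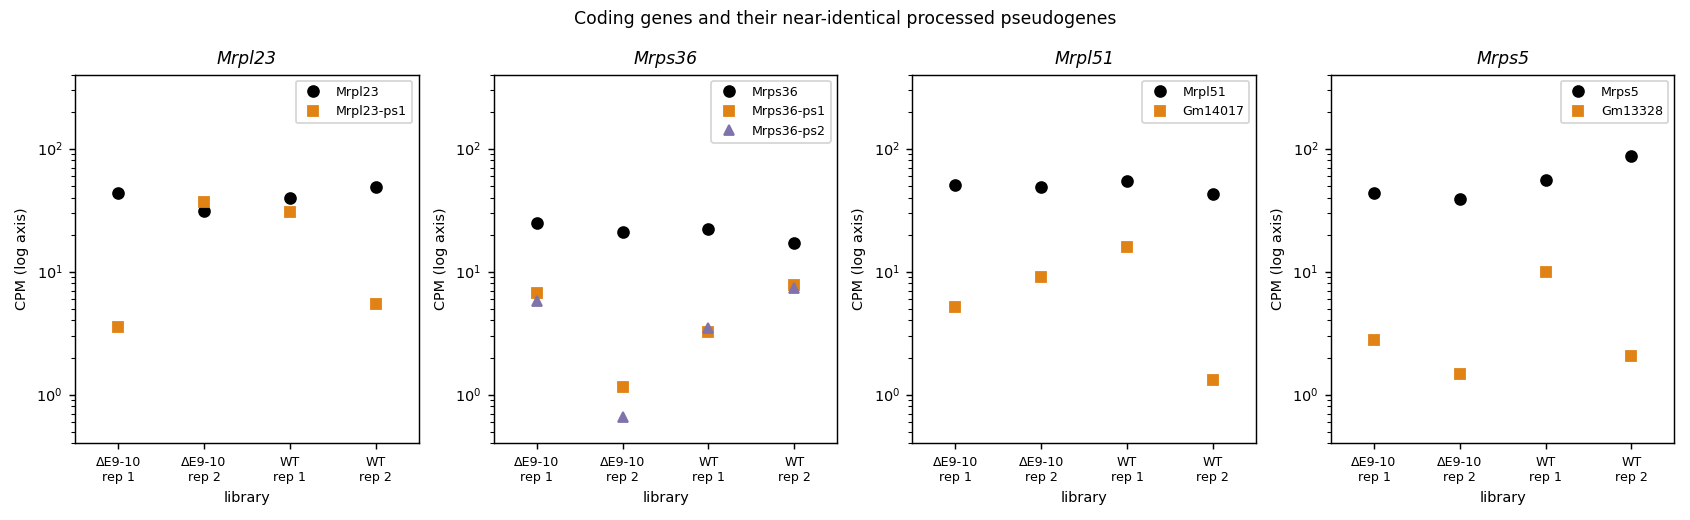
CPM (vertical log axis) in each of the 4 libraries (horizontal axis) for Mrpl23, Mrps36, Mrpl51 and Mrps5 as black circles, with their pseudogene copies as coloured squares or triangles. Mrpl23-ps1 spans a 10.4-fold range over libraries in which Mrpl23 spans 1.58-fold.

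Many of the genes start beside another gene on the opposite strand. Within 500 bases of the start, 25 members had a coding gene that runs the other way, and 23 of these partners were in the table. The partners' log2 fold changes ran from -1.80 to 0.61, and 1 of them, *Hira* next to *Mrpl40*, had an unadjusted edgeR p under 0.05. *Hira*, a histone chaperone, was at 27.5 and 34.2 CPM against 27.2 and 187 CPM. Its log2 fold change was 0.19 without BcorWT replicate 2 and -2.60 without BcorWT replicate 1. *Mrpl44* and its neighbour *Wdfy1*, with starts 125 bases apart, had values of opposite sign (-0.72 and 0.61). *Mrps12* and *Sars2*, the mitochondrial seryl-tRNA synthetase gene 172 bases away, were at 0.13 and -0.47. *Mrpl46* and *Mrps11* are neighbours within the family, and were at -0.04 and -0.59. Exons of 25 members overlap a gene with a row of its own, 10 of them within 500 bases of the member's 3′ end, where these libraries are read, and over all of those bases for *Mrps25*, *Mrpl24* and *Mrps18b*. Whether counting used the strand is not given in the sources used here, and without it the counts of partners on opposite strands cannot be told apart. *Mrpl53* and *Gm42688* overlap there on the same strand (418 bases), as do *Mrps34* and *Nme3* (402 bases). For these the strand would not separate the counts. The members lay on 17 chromosomes, with none on the X chromosome that carries *Bcor*.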

How the data were processed

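Gene counts of 4 Quant-seq 3′ libraries were analysed, 2 from BcorΔE9-10 and 2 from BcorWT KL cells. The submitters' processing notes name FastQC, cutadapt 1.7, HISAT2, featureCounts, Subread and limma, with GRCm38 (mm10) as the build. The authors trimmed and mapped the reads and deposited gene counts that were not normalized. In BcorΔE9-10 replicate 1 and BcorWT replicate 2 the deposited values are whole counts. In the other 2 libraries a single gene, outside the family, has values that are not whole, so the deposited values of those columns were taken to be expected counts and were rounded. The table holds 12067 genes, and the level at which the authors left out others is not given in the sources used here.

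The members, lists and markers were chosen with earlier results of these data known. Differences were tested over all genes with edgeR 4.0.16 in R 4.3.3, using filterByExpr, TMM, a quasi-likelihood fit with a prior count of 0.125 and Benjamini-Hochberg adjustment. SE is the log2 fold change divided by the square root of F. Log2 CPM used a prior count of 2. Genes were named as the 5 highest and 5 lowest log2 fold changes, the 5 highest and 3 lowest mean CPM, genes chosen by role, the subunits with other names, list genes with an unadjusted p under 0.05 and the -ps rows. *Mrpl22*, *Mrpl23*, *Mrpl24*, *Mrpl40*, *Mrpl46*, *Mrpl48*, *Mrpl51*, *Hira*, *Wdfy1*, *Sars2*, *Lars2*, *Atp5l*, *Rps6*, *Rps3a2*, *Rps3a3*, *Gm14017*, *Gm13328*, *Nrf1*, *Gabpa*, *Yy1* and further mitochondrially encoded genes were named after their values were seen. Gene positions and copies came from GENCODE M21 (blastn 2.17.0) and promoters from RefSeq. Alternatives were limma-voom (limma 3.58.1), DESeq2 1.42.0, its size factors, all rows kept, only rows with 10 or more counts in each library, a replicate block, a prior count of 2, leaving out *Gm42418* and leaving out each library, and, chosen after the data were seen, adding the counts of the -ps rows to their parents. The fits were tested on simulated data. Figures were drawn with matplotlib 3.10.9. Replicate numbers come from the labels, which do not say that they pair the libraries.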

Additional observations from a re-analysis of the deposited data

How the results depend on the processing

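Counts of members with an adjusted p under 0.05 stayed at 0 under DESeq2's size factors, no filter, a minimum of 10 counts, limma-voom, DESeq2, the replicate block, leaving out *Gm42418* and adding the -ps rows, and ran from 0 to 2 with each library left out, reaching 2 without BcorWT replicate 1, where 4.94% of all genes passed. Members with an unadjusted p under 0.05 numbered 2 (*Mrps18a* and *Mrps5*, of 75) with at least 10 counts in every library, where 4.70% of all genes had such a p, 1 with DESeq2 (against 4.19%), and 0 to 13 with each library left out (13 without BcorWT replicate 1, against 25.0% of all genes, and 2 without BcorWT replicate 2, against 5.71%). Members higher in BcorΔE9-10 numbered 40 in each fit without a library, where the median log2 fold change ran from 0.00 to 0.04. The summed CPM difference ran from -9.05% to 2.65% in those fits. In them the lone library of a group is assumed to vary like the others. Same-numbered libraries deviated from their group means with a correlation of -0.09. With the replicate number as a block, 0 members passed either threshold, 34 were higher, the median was -0.02, and the 7 lists of related mitochondrial genes (those of oxidative phosphorylation and the cytoplasmic ribosome not counted) had 1 gene with an adjusted p under 0.05 (*mt-Atp8*, -2.81). The block gives no value for a sum. The same 7 lists had 0 to 3 such genes with each library left out, 3 without BcorΔE9-10 replicate 2, 2 without BcorWT replicate 1 and 1 without BcorWT replicate 2. The cause of these shifts was not tested.

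Leaving out a library turned the sign of the log2 fold change for 35 of the 77 members (45.5%, against 53.3% of all genes), and for 26 of the 63 named genes, members and others. Ranges for these named genes were *Aurkaip1* from -0.51 to 0.45, *Gadd45gip1* from -0.62 to 0.0274, *Gm13328* from -2.23 to 0.0199, *Gm14017* from -1.15 to 2.41, *Hira* from -2.60 to 0.19, *Lars2* from -1.83 to 1.36, *Mrpl10* from -0.14 to 0.0688, *Mrpl11* from -0.29 to 1.22, *Mrpl12* from -0.48 to 0.0794, *Mrpl22* from -0.80 to 0.39. The others were *Mrpl23-ps1* from -2.32 to 1.88, *Mrpl40* from -0.48 to 0.16, *Mrpl45* from -0.24 to 0.0908, *Mrpl46* from -0.26 to 0.15, *Mrpl47* from -0.099 to 0.0694, *Mrpl48-ps* from -0.997 to 3.18, *Mrpl51* from -0.14 to 0.23, *Mrpl58* from -0.54 to 0.0895, *Mrps12* from -0.0587 to 0.34, *Mrps21* from -1.32 to 0.13, *Mrps22* from -0.68 to 1.18, *Mrps36-ps1* from -2.25 to 0.26, *Mrps36-ps2* from -3.02 to 0.0633, *Nrf1* from -1.16 to 0.0445, *mt-Atp6* from -3.05 to 0.20 and *mt-Cytb* from -0.25 to 0.25. Elsewhere the sign turned for *Gm14017* (0.38 with the block, 0.90 by limma-voom), *Mrpl23-ps1* (-0.0946 with the block), *Mrpl48-ps* (-0.0331 by DESeq2), *Mrps22* (-0.00633 by DESeq2 and -0.00301 without *Gm42418*), *Mrps36* (-0.0334 with -ps counts added) and *mt-Cytb* (0.00222 with the block, 0.00275 by limma-voom). Of 807 values for 63 named genes, 737 kept direction and side of the threshold. This tally includes the setting with all rows kept, which repeats the main fit because the filter removed no gene. It also includes the prior count of 2, which leaves every p as it was. With 3825289.5 counts in the shallowest library, the rarest member had 8 counts there, which limits what can be said of the low genes.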
